A study of Mus musculus with 2 samples.

Results

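The Mir17-92 cluster comprises 6 miRNA genes, Mir17, Mir18, Mir19a, Mir20a, Mir19b-1 and Mir92-1, which were chosen by their symbols and their place in the host gene Mir17hg and make up 6 of the 1973 miRNA genes counted. MicroRNA sequencing had been run on whole limbs of B6NCrl mouse embryos at embryonic day 13.5. There was 1 group of 2 libraries, labelled as biological replicates with separate tissue samples of the same donor label. Both held limbs of male and female embryos together, and the labels state no mutation, transgene or treatment. The design therefore has no contrast between conditions, and the values below describe the cluster in this tissue, the spread between the libraries and the paralogous genes counted beside it.

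The cluster is transcribed as a single primary RNA from which each hairpin is cut out and then trimmed to a short mature miRNA. It is activated by Myc and E2F factors and is known for promoting proliferation and survival. Its loss in mice is lethal at birth, and its hemizygous deletion in people causes a form of Feingold syndrome, with short digits and short stature. The seed, bases 2 to 8 of the mature miRNA, pairs with target messages, so members with the same seed share many targets. The genome carries paralogous clusters with the same seeds: Mir106b-25, within Mcm7, and Mir106a-363, on the X chromosome.

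The sequences are shown because the 6 members fall into 4 seed groups, which order the results that follow. All 6 hairpins matched a RefSeq entry (GRCm38.p6) at the same place and with the same sequence as in GENCODE M21. The mature arm by which each gene is usually known is printed 5′ to 3′ with the seed in capitals.
miR-17-5p of Mir17: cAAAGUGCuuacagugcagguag
miR-20a-5p of Mir20a: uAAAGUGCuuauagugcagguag
miR-18a-5p of Mir18: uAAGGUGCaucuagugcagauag
miR-19a-3p of Mir19a: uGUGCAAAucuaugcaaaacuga
miR-19b-3p of Mir19b-1: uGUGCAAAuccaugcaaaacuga
miR-92a-3p of Mir92-1: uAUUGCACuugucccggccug
Counted from the 5′ end, miR-17-5p and miR-20a-5p differ at 2 positions (C1U and C12U, the miR-17-5p base first), and miR-19a-3p and miR-19b-3p at 1 (U11C, the miR-19a-3p base first). The mature arms of Mir17, Mir20a, Mir18 and Mir19a have no identical copy in another gene of the RefSeq table. That of Mir19b-1 is also made by Mir19b-2, and that of Mir92-1 also by Mir92-2, both in the X-linked cluster.

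All members lie on the plus strand of chromosome 14 (mm10) and wholly inside exon 2 of the annotated Mir17hg transcript, a lincRNA gene at 115042879 to 115046727 with 2 exons. From 5′ to 3′, Mir17 lies at 115043671 to 115043754, Mir18 at 115043851 to 115043946, Mir19a at 115044000 to 115044081, Mir20a at 115044157 to 115044263, Mir19b-1 at 115044305 to 115044391 and Mir92-1 at 115044427 to 115044506. The span of all 6 is 836 bases, with gaps of 35 to 96 bases between hairpins. Hairpin GC content was close among members, 43.7% to 47.5%, where the median of the 372 detected genes was 50.5%. No member had an antisense count in either library, against 38 of those 372 genes that had at least 1.

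Replicate 1 held 12407140 reads, of which 5927321 fell in miRNA genes in sense, and replicate 2 held 12657170, with 6003632 such counts. Levels are in CPM, counts scaled to these gene-assigned totals, and a count of 0 allows up to 0.506 and 0.4997 CPM. A read covers a mature miRNA whole, so counts were not divided by hairpin length. The markers of limb tissue taken here were high in both libraries, with Hox-cluster Mir196b at 70886 CPM or more, cartilage Mir140 at 46556 CPM or more and muscle Mir206 at 3741 CPM or more. Mir126a of vessels (19637 CPM or more), Mir205 of ectoderm (6269 CPM or more) and Mir451a of blood (74.7 CPM or more) were present too, as was Hox-cluster Mir10b (13937 CPM or more). Liver Mir122 lay at 66.8 and 80.6 CPM and heart Mir208a at 4.89 and 8.66 CPM. The 3 genes of neuronal miR-124 were at 0 counts, but they are copies of each other and multimapping reads were credited to no gene, so this 0 does not show that neuronal miRNAs were absent. Among genes named after their values were seen, Mir128-1 and Mir137, both enriched in neurons, lay at 171 and 164 CPM and at 114 and 143 CPM. Mir206 was the one muscle gene among the markers, and others of muscle were far lower, Mir133b at 75.2 and 75.3 CPM and Mir499 at 73.6 and 88.6 CPM. Mir1a-1 had 1 count and Mir133a-2 had 0 counts in each library. Both share 22 or more bases with another annotated miRNA gene, so these counts can be too low.

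The cluster took 325474 sense counts in replicate 1, a share of 5.49% (95% Wilson interval 5.47 to 5.51). In replicate 2 it took 276069, or 4.60% (4.58 to 4.62), and the intervals, which cover counting error only, do not overlap. The share was 5.04% ± 0.63 (SD, n = 2) of gene-assigned counts, or 2.40% of all reads. All 6 members had at least 10 counts in each library, where 18.9% of all 1973 genes did. In whole limbs, a change in the number of cells with the cluster and a change in its RNA per cell cannot be told apart.

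Levels did not follow the order of the hairpins along the transcript. Mir17, at its 5′ end, was the highest, Mir92-1, at the 3′ end, was in the middle, and both members of the miR-19 group, which lie between them, were the lowest. From highest to lowest the order was Mir17, Mir20a, Mir18, Mir92-1, Mir19a and Mir19b-1 in both libraries. Each step between neighbours in this order was larger than its own spread over the libraries.

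**Figure D1:**
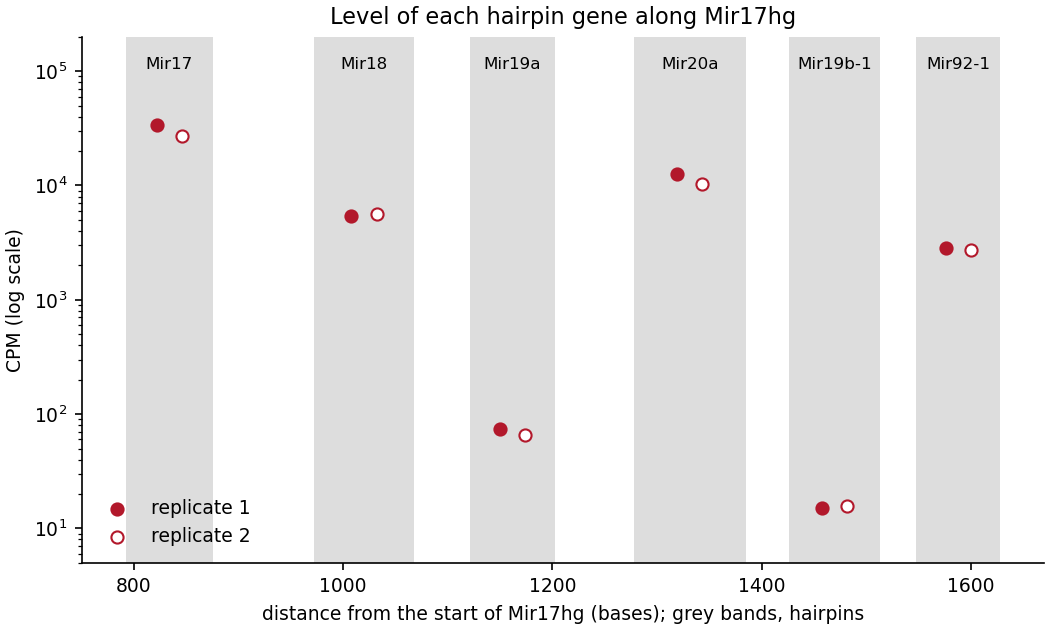
CPM of each member on a log axis against distance in bases from the annotated start of Mir17hg, with filled points for replicate 1, open points for replicate 2 and grey bands for the hairpins. Mir19a and Mir19b-1 sit far below their neighbours on the same transcript, and the points of a gene lie close together.

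Of the miR-17 group, whose seed is known to act on cell-cycle brakes such as Cdkn1a, Mir17 was counted 200995 times in replicate 1 and 163039 times in replicate 2. These counts are 33910 and 27157 CPM, ranks 7 and 11 among all genes. Mir20a had 74846 and 62296 counts, or 12627 and 10376 CPM, at ranks 20 and 22. Replicate 1 was the higher library for both. Mir17 exceeded Mir20a by 2.69-fold and 2.62-fold in replicates 1 and 2, a log2 ratio of 1.41 ± 0.03 (SD, n = 2), so these genes of like sequence kept nearly the same proportion while both were lower in replicate 2. Together they made up 84.8% and 81.6% of the cluster's counts, and Mir17 by itself 61.8% and 59.1%.

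Mir18, whose product miR-18a is known to target parts of TGF-beta signalling, lay between its neighbours Mir17 and Mir19a in position but far from both in level. It had 32266 counts in replicate 1 and 33868 in replicate 2, or 5444 and 5641 CPM, close in both libraries. It formed 9.91% and 12.3% of the cluster. Mir20a exceeded it by 2.32-fold and 1.84-fold, a log2 ratio of 1.05 ± 0.24 (SD, n = 2), the widest spread among the neighbouring steps.

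Mir92-1 makes miR-92a, known for restraining vessel growth. It had 16835 counts in replicate 1 and 16375 in replicate 2, or 2840 and 2728 CPM, again nearly level between libraries. Mir18 exceeded it by 1.92-fold and 2.07-fold (log2 ratio 0.99 ± 0.08, SD, n = 2). From Mir92-1 down to Mir19a the step was much larger, 38.0-fold and 41.2-fold (log2 ratio 5.31 ± 0.08, SD, n = 2).

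The miR-19 group, known for much of the cluster's oncogenic activity, was scarce as counted here. Mir19a had 443 and 397 counts, which is 74.7 CPM (95% Wilson interval 68.1 to 82.0) in replicate 1 and 66.1 CPM (59.9 to 73.0) in replicate 2. Mir19b-1 had 89 and 94 counts, 15.0 CPM (12.2 to 18.5) and 15.7 CPM (12.8 to 19.2). The intervals of the libraries overlap for each gene, and those of Mir19a lie wholly above those of Mir19b-1. Both genes together were 0.163% and 0.178% of the cluster's counts. From Mir17 to Mir19b-1 the range within this single transcript was 2258-fold in replicate 1 and 1734-fold in replicate 2, a log2 ratio of 10.95 ± 0.27 (SD, n = 2).

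How far down Mir19b-1 and Mir92-1 belong is uncertain. Multimapping reads, 30.8% and 29.5% of the libraries, were listed apart and credited to none of the genes. The stretch of each hairpin around its mature arm is shown beside that of its X-linked copy, with the mature arm in capitals and 8 bases to either side.
Mir19b-1: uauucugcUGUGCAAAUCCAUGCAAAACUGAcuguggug
Mir19b-2: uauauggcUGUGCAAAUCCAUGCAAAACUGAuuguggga
Mir92-1: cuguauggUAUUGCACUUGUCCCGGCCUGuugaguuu
Mir92-2: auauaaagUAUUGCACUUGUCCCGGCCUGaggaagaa
Identity runs for 25 bases in the Mir19b pair and 22 in the Mir92 pair, and in both it ends with the last base of the mature arm. A read equal to the mature miRNA therefore fits both genes, and a read that reaches past its 3′ end fits only 1 of them without a mismatch. The deposited counts do not show which arm or which ends the counted reads had. The remaining 4 hairpins share at most 17 identical bases with any other annotated miRNA gene. Without members that share 22 or more bases, the range ran from Mir17 to Mir19a, 454-fold and 411-fold (log2 ratio 8.75 ± 0.10, SD, n = 2). Mir19a was low too. Its mature arm has no identical copy elsewhere in the table but differs from that of Mir19b-1 at only 1 position. How reads with a mismatch were placed, such as a miR-19a read against a Mir19b locus, is not given in the sources used here.

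Outside the cluster, the detected genes nearest in mean CPM were Mirlet7i (31984) and Mir130a (32213) for Mir17 at 30533 ± 4775 CPM (SD, n = 2), and Mir93 (11541) and Mir487b (12961) for Mir20a at 11502 ± 1592 CPM. For Mir18 at 5542 ± 140 CPM they were Mir744 (5599) and Mir151 (5386), and for Mir92-1 at 2784 ± 80 CPM Mir483 (2758) and Mir708 (2853). Mir19a at 70.4 ± 6.1 CPM lay beside Mir190a (70.4) and Mir760 (70.5), and Mir19b-1 at 15.3 ± 0.5 CPM beside Mir486 (15.2) and Mir450-2 (15.8). All these genes but Mir487b, which exceeded Mir20a by 0.17 on the log2 scale, lay within 0.08 of their member. Like Mir19b-1 and Mir92-1, the genes Mir486, Mir450-2 and Mir708 share 22 or more bases with another annotated miRNA gene. Their counts can be too low.

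Seen beside its paralogs, the chromosome 14 cluster held 71.2% and 68.7% of the counts of the 3 clusters in replicates 1 and 2. Mir106b-25, with 127022 and 122115 counts in 3 genes, held 27.8% and 30.4%, and Mir106a-363, with 4763 and 3384 counts in 6 genes, 1.04% and 0.843%. The log2 ratio of the Mir17-92 sum over both paralog sums was 1.22 ± 0.12 (SD, n = 2), and between medians of members it was 4.72, with 6 of the 9 paralog genes in the scarce X-linked cluster. Against Mir106b-25 the sum was 2.56-fold and 2.26-fold higher, and against Mir106a-363 it was 68.3-fold and 81.6-fold higher. Both directions held in each library. With 2 libraries the smallest two-sided exact permutation p is 0.5, and these ratios carry no test.

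The paralogous mature arms are printed for comparison with those above, again with the seed in capitals. Each carries a seed of the cluster, and differences from its members lie outside the seed.
miR-106b-5p of Mir106b: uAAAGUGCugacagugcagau
miR-93-5p of Mir93: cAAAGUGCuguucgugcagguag
miR-106a-5p of Mir106a: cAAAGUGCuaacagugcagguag
miR-20b-5p of Mir20b: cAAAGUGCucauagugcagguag
miR-18b-5p of Mir18b: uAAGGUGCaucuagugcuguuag
miR-25-3p of Mir25: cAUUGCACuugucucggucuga
miR-363-3p of Mir363: aAUUGCACgguauccaucugua
Of these, miR-106a-5p is the closest to a member, with 1 difference from miR-17-5p (U10A, the miR-17-5p base first). The miR-18 arms differ at 2 positions (A18U and A20U, the miR-18a-5p base first).

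**Figure D2:**
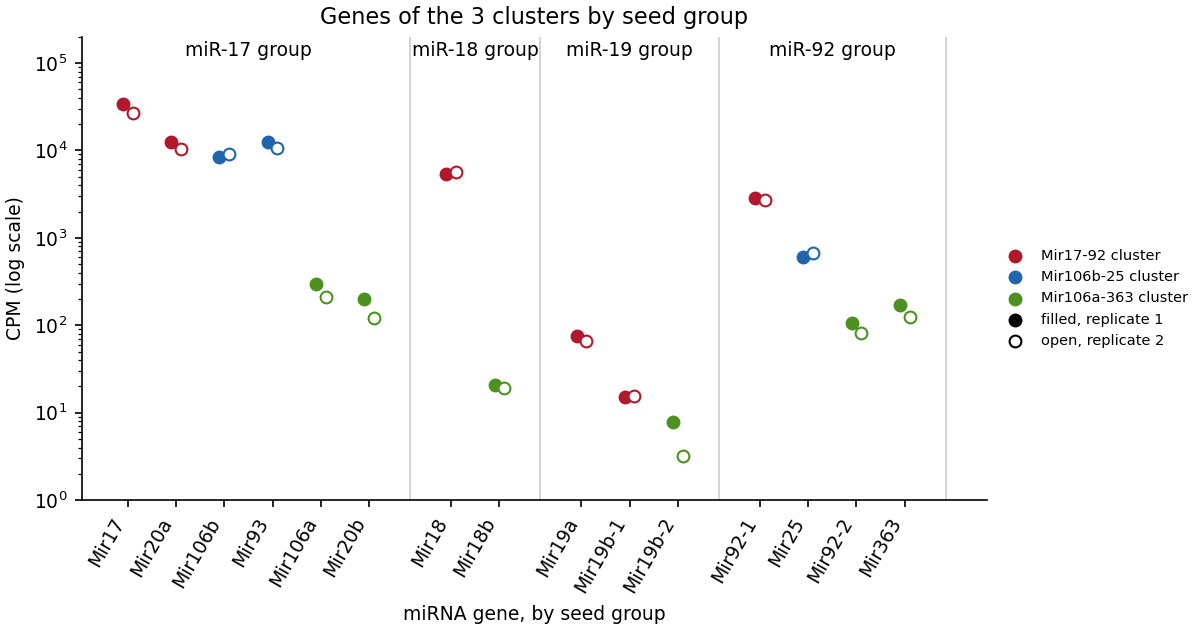
CPM on a log axis for the 15 genes of the 3 clusters, ordered by seed group and coloured by cluster, with filled points for replicate 1 and open points for replicate 2. In the miR-18, miR-19 and miR-92 groups a member of the chromosome 14 cluster is highest, and in the miR-17 group Mir93 and Mir106b lie near Mir20a.

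Within the miR-17 seed, Mir17 exceeded Mir106b by 4.04-fold and 3.01-fold (log2 ratio 1.80 ± 0.30, SD, n = 2) and Mir106a by 113-fold and 128-fold (6.91 ± 0.13). Mir106b lay at 8390 and 9013 CPM and Mir106a at 300 and 212 CPM. Mir20a and Mir93 could not be ordered: Mir93 was at 12434 and 10648 CPM, and the log2 ratio of Mir20a over Mir93 was 0.022 in replicate 1 and -0.037 in replicate 2. These genes lie on different chromosomes and their mature arms differ at 4 positions. Mir20a exceeded Mir20b, at 198 and 122 CPM, by 63.7-fold and 85.2-fold. The cluster supplied 68.6% and 65.2% of the counts of genes that carry this seed, and Mir106b-25 30.7% and 34.2%. Counts are of whole hairpin genes. In each seed group they can therefore hold reads of the opposite arm, such as miR-17-3p, which has another seed. The only other gene with the seed in the RefSeq table, Mir6383, had 0 counts in both libraries.

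Counted within the 3 clusters, the cluster's share of each of the other seed groups was higher. Mir18 exceeded Mir18b, at 20.8 and 19.2 CPM, by 262-fold and 295-fold (log2 ratio 8.12 ± 0.12, SD, n = 2) and held 99.6% and 99.7% of the group's counts. Mir19a and Mir19b-1 held 92.0% and 96.3% of the few counts of the miR-19 group. Reads that fit both Mir19b genes equally are missing from these counts and from the ratio that follows. Mir19b-2 had 46 and 19 counts, so the ratio of Mir19b-1 over Mir19b-2 moved from 1.93-fold in replicate 1 to 4.95-fold in replicate 2.

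In the miR-92 group Mir92-1 exceeded Mir25, at 606 and 679 CPM, by 4.69-fold and 4.02-fold (log2 ratio 2.12 ± 0.16, SD, n = 2). It exceeded its own copy Mir92-2, at 107 and 81.3 CPM, by 26.4-fold and 33.6-fold, a ratio of uniquely placed reads only. Mir92-1 held 76.3% and 75.5% of this group's counts in the 3 clusters. Genes with the seed outside them were Mir92b at 255 ± 16 CPM (SD, n = 2), Mir32 at 220 ± 9 CPM and Mir367 at 0 counts. With these included the share of Mir92-1 was 67.6% and 66.8%.

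**Figure D3:**
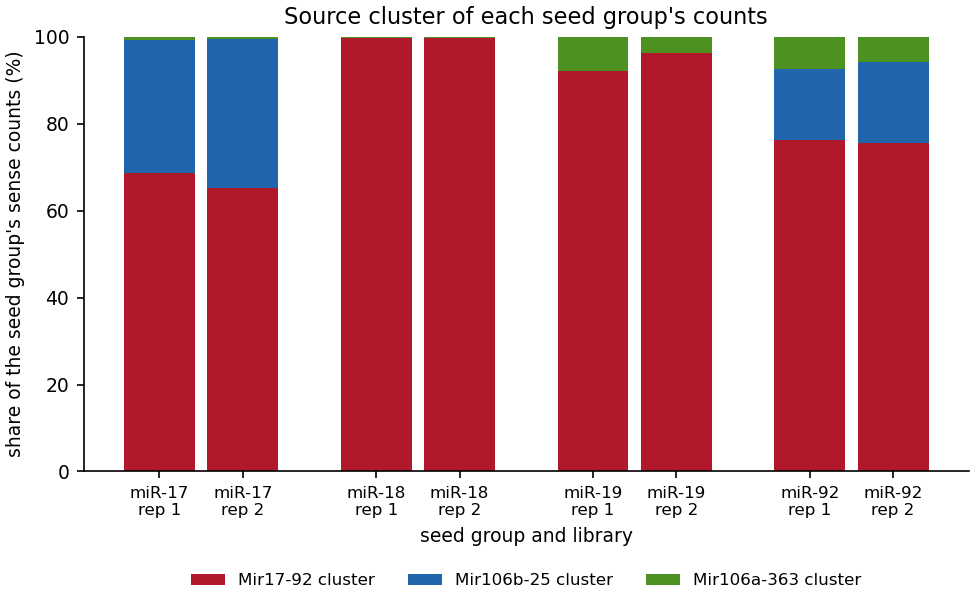
Share in percent of each seed group's sense counts in the 3 clusters that came from each cluster, as stacked bars from 0 to 100, for both libraries. The Mir17-92 part is largest in every group, from 65.2% for miR-17 in replicate 2 to 99.7% for miR-18 in replicate 2.

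Paralogous clusters also had wide ranges. Mir106b-25 ran from Mir93 down to Mir25 by 20.5-fold and 15.7-fold, and Mir106a-363 from Mir106a down to Mir19b-2 by 38.6-fold and 67.1-fold. Mir19b-2 has its mature arm in common with Mir19b-1, so its count can be too low, and without it the range ran down to Mir18b, by 14.4-fold and 11.1-fold. In both clusters that have one, the gene of the miR-19 group was the lowest as counted.

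Between the libraries the members did not move as a block. Mir17 and Mir20a were lower in replicate 2, at log2 ratios of -0.32 and -0.28 after adding 0.5 counts. Mir92-1 was nearly level at -0.06 and Mir18 at 0.05. Mir19a lay at -0.18 (adjusted p = 0.160) and Mir19b-1 at 0.06 (adjusted p = 0.904), by the exact binomial test with Benjamini-Hochberg adjustment over 444 genes. It sets the reads of 1 library against those of the other and covers no error beyond counting. At an adjusted p under 0.05 and an absolute log2 ratio of at least 1, 0 of 6 members were called, where 3.38% of all genes tested were. Among the 190 genes with a mean of at least 100 CPM 0 were called, and among the 97 of at least 1000 CPM also 0. The absence of a call therefore does not set the members at these levels apart from other genes. On the adjusted p alone, as on an unadjusted p under 0.05, 4 of 6 passed, 3 lower (Mir17, Mir20a, Mir92-1) and 1 higher (Mir18) in replicate 2. Among all genes tested 40.3% passed in this way, 22.1% lower and 18.2% higher. The 4 members that passed all had a mean above 1000 CPM, where 88 of 97 genes passed, members included. At a mean of at least 100 CPM 137 of 190 genes passed.

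**Figure D4:**
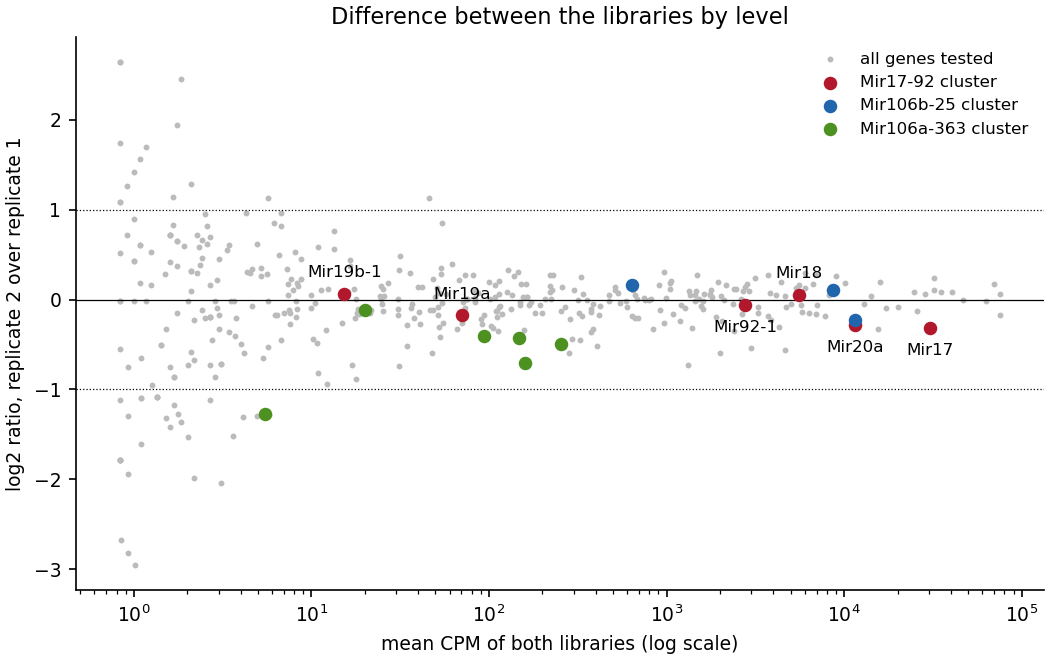
Log2 ratio of replicate 2 over replicate 1 against mean CPM on a log axis for the 444 genes tested, with the members as named red points, Mir106b-25 in blue and Mir106a-363 in green, and dotted lines at the minimum ratio of 1. Mir17 and Mir20a lie at -0.32 and -0.28, while Mir18 and Mir92-1 lie near 0, at 0.05 and -0.06.

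The median log2 ratio of the members was -0.12, and that of all genes tested -0.02. Of the 190 genes with a mean of at least 100 CPM, 22 (11.6%) had an absolute ratio as large as that of Mir17 and 30 (15.8%) as large as that of Mir20a, these genes included. For Mir92-1 and Mir18 the shares were 74.2% and 79.5%. The lower share of the cluster in replicate 2 lay in Mir17 and Mir20a, since its other 4 members together had 49633 counts in replicate 1 and 50734 in replicate 2. Proportions among the 15 pairs of members changed by between 0.0089 on the log2 scale, for Mir18 and Mir19b-1, and 0.38, for Mir17 and Mir19b-1. Both ends rest on Mir19b-1 with 89 and 94 counts, too few to show that its pair with Mir18 was the steadiest. Among members with many counts, Mir17 and Mir18 changed by 0.37. The pair of Mir17 and Mir20a changed by 0.037.

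The X-linked paralogs were lower in replicate 2 in 6 of 6 genes, from -0.12 for Mir18b to -1.27 for Mir19b-2. Of these, 5 passed on the adjusted p alone and Mir19b-2 was called. Among all 444 genes tested 234 were lower in replicate 2, and 98 passed as lower. Mir18b had 123 and 115 counts and Mir19b-2 46 and 19 in replicates 1 and 2. Mir106b-25 was divided like the chromosome 14 cluster, with Mir93 at -0.22 and Mir106b and Mir25 at 0.10 and 0.16.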

How the data were processed

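Small RNA from 2 limb libraries was measured as deposited read counts: per the labels the RNA was below a set size and the build is mm10, and per the deposited text the annotation is GENCODE M4. The aligner and the counting program are not named in these sources. The deposited counts are whole numbers for either strand, sense and antisense, told from their layout as there is no header: either-strand counts are the sum of both strands in each of the 1973 genes. The 4 leading lines without a gene were left out of totals: unmapped reads were 17.2% and 18.6%, multimapping 30.8% and 29.5%, and reads in no gene 4.24% and 4.48%. Sense counts of 5927321 and 6003632 were scaled to CPM. Neither molecular identifiers nor calibration to known amounts are recorded in these sources, and intervals hold counting error alone.

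Identifiers matched GENCODE M21 (GRCm38) without version for 1894 genes. Sequences came from RefSeq on GRCm38.p6. Libraries were compared over all genes with at least 10 counts in total by a two-sided exact binomial test (scipy 1.17.1) with Benjamini-Hochberg adjustment. The test was run on simulated counts that held counting noise only, without the minimum ratio. That run does not show how the test behaves on libraries with more noise. The libraries differed by more than counting noise (chi-square 39337.9, 443 degrees of freedom). Alternatives were other denominators, strands, minimums and pseudocounts, edgeR 4.0.16 TMM factors, DESeq2 1.42.0 size factors, dropping genes with shared sequence, and single libraries. Members, paralogs, seed groups and lists were chosen with earlier results of these data known. Named genes are the members, paralogs, genes with a member's seed, the 2 genes nearest each member in mean CPM, and the listed tissue markers. Mir433, Mir128-1, Mir137, Mir133b, Mir499, Mir1a-1 and Mir133a-2 were named after their values were seen.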

Additional observations from a re-analysis of the deposited data

How the results depend on the processing

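The cluster's share was 2.40% of all reads and 2.92% of reads not listed as unmapped. Without genes sharing 22 or more bases, the miR-17 group made up 88.1% of the cluster's counts and the log2 range of members was 8.75; with log2(CPM + 10) that range was 10.23. Between medians the log2 ratio over the paralogs was 4.72. Dropping the minimum ratio moved the members called between libraries from 0 to 4. Mir20a over Mir93 changed sign between libraries, 0.022 in replicate 1 alone and -0.037 in replicate 2 alone. All other alternatives run for these results were 23 in number. They moved the results by less than the spread between libraries or, for counts of members, by less than 1.5 times. The 23 include values of single libraries, which with 2 libraries always lie within that spread of their mean and so test nothing. With at least 100 counts in each library 5 of 6 members were detected, Mir19b-1 being the exception. The log2 ratios between libraries of the 15 genes kept their sign under TMM factors, DESeq2 size factors, all reads, either-strand counts and a pseudocount of 5. With the either-strand total as denominator, chosen after seeing the data, the mean CPM of Mir18, Mir19b-1 and Mir92-1 fell past their spread, to 5364, 14.8 and 2694. No paired analysis was possible because there is 1 group. Depth limits Mir19b-1 and Mir19b-2 most, with under 100 counts in each library.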

Other observations

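The 5 genes of the miR-17 seed whose hairpin holds CAGGUAG, the last 7 bases of miR-17-5p, were Mir17, Mir20a, Mir93, Mir106a and Mir20b, on 3 chromosomes. All 5 were lower in replicate 2, as were 98 of the 190 genes with a mean of at least 100 CPM. The log2 ratios of the 5 were -0.32, -0.28, -0.22, -0.50 and -0.70. The sixth gene of that seed, Mir106b, holds CAGAUAG in its place, the last 7 bases of miR-18a-5p, and lay at 0.10, and Mir18 itself at 0.05. Mir106a and Mir20b lie in the X-linked cluster, where the genes without CAGGUAG were lower in replicate 2 too. Those genes lay at -0.43 (Mir363), -0.40 (Mir92-2), -0.12 (Mir18b) and -1.27 (Mir19b-2). The stretch was chosen after these ratios were seen, and only the sense strand of each hairpin was searched. CAGGUAG is in 13 of 1005 RefSeq hairpins (1.29%), and CAGAUAG in 6 (0.597%). Of the genes with CAGGUAG, 6 had a mean of at least 100 CPM, and the one outside the seed group was Mir433, picked out with its ratio of 0.19 already known, which was higher in replicate 2. This is a description of 2 libraries, and no cause was tested.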
